A study of Mus musculus with 6 samples.

Results

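Retinoic acid is a vitamin A derivative that acts as a diffusible signal between cells. Retinol is oxidised to retinal, retinal dehydrogenases oxidise retinal to retinoic acid, cellular binding proteins carry the acid, nuclear receptors paired with RXR bind DNA with it, and CYP26 enzymes degrade it. In the developing kidney, retinoic acid made by stromal cells is known to maintain expression of Ret, the receptor through which the ureteric bud branches. The 9 genes described here are the retinal dehydrogenases Aldh1a1, Aldh1a2 and Aldh1a3, the receptors Rara, Rarb and Rarg, the binding proteins Crabp1 and Crabp2, and the degrading enzyme Cyp26b1. They were chosen by name, with earlier results of these data known, as rows of a table with 13965 rows in all. The other gene lists used below were also chosen with those results known. All 9 had a row of their own, and all 9 passed the filter on low values.

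The study sequenced RNA of whole mouse kidneys on embryonic day 16. The 3 control libraries came from embryos labelled WT, miR-17~92 flx/+, which therefore carried 1 floxed copy of the microRNA cluster. The 3 mutant libraries came from Six2-TGC; miR-17~92 flx/flx embryos, in which both copies are floxed and the Six2-TGC transgene expresses Cre recombinase in nephron progenitors, and the control label names no transgene. What the transgene does and what the deletion does therefore cannot be told apart. The 6 libraries came from 3 litters, with both groups present once in every litter, and nothing in the labels says whether a library is 1 embryo or several. Stroma and ureteric bud do not descend from the progenitors that express the transgene, and a whole kidney mixes all of these cells. In such samples a change in the number of cells of a type and a change in RNA per cell cannot be told apart.

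The row that holds Mir17hg, the host transcript of the cluster, is joined with microRNA genes that lie in it. Reads of this row may come from outside the deleted segment, so it does not check the labels. It measured 34.1, 36.4 and 23.0 CPM (reads scaled to library depth) in the controls of litters 1, 2 and 3 and 53.6, 39.8 and 44.6 CPM in the mutants, which were the higher in every litter (adjusted p = 0.0292 paired by litter, and 0.222 on genotype alone). Six2, which marks the progenitors, measured 50.6 ± 7.95 CPM in controls and 38.6 ± 6.68 CPM in mutants (SD, n = 3 each, adjusted p = 0.00626 paired).

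The deleted cluster encodes 6 mature microRNAs in 4 seed families, printed here because the loss of these sequences is what the genotype labels name. They are the RefSeq sequences from 5′ to 3′, with the seed, bases 2 to 8, in capitals. The members of the miR-17 and miR-20a pair share a seed, as do those of the miR-19a and miR-19b pair.
mmu-miR-17-5p: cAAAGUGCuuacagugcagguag
mmu-miR-20a-5p: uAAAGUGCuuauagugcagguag
mmu-miR-18a-5p: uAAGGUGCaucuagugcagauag
mmu-miR-19a-3p: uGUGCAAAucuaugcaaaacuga
mmu-miR-19b-3p: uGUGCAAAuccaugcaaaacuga
mmu-miR-92a-3p: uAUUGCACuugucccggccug

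For each gene, the longest complete 3′ UTR among its annotated protein-coding transcripts was searched on the sense strand. The search was for the 7-base complements of these seeds (GCACTTT for miR-17-5p and miR-20a-5p, GCACCTT for miR-18a-5p, TTTGCAC for the miR-19 pair and GTGCAAT for miR-92a-3p). Of the 9 retinoid genes, Cyp26b1 alone held a match, which was to miR-17-5p and miR-20a-5p and began at base 2377 of a 2853-base 3′ UTR. The site, in capitals, with its flanks was:
Cyp26b1 miR-17/20a seed match: tgcagattgaaGCACTTTcaaagttaggc
Among the 1966 genes of the table with a 3′ UTR of 0.8 to 1.25 times that length, 56.9% held a match of any of the 4 families and 25.3% held 1 for miR-17-5p and miR-20a-5p. Across 13518 protein-coding genes of the table, whatever their length, 33.7% held a match of any family. No match in the other 8 genes says only that these letters are not in the 3′ UTR examined.

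The promoters of the genes were searched on both strands for direct repeats of a half-site, separated by 1, 2 or 5 bases. The half-site searched was AGGTCA or a variant of it, namely GGGTCA as one form, AGTTCA as another form and GGTTCA as the last form, in any combination. Such repeats are the sequences that retinoic acid receptors are known to bind. RefSeq windows of 250 bases before to 50 after a start site were at hand for 7 of the 9 genes. Rarb, which is known as a gene that retinoic acid induces through such an element, had the one match, a repeat separated by 5 bases at positions -53 to -37 from the start site. It lies within the 250 bases upstream of that start, chr14:16575477-16575726 on the minus strand of GRCm38.p6, and is shown with its repeat in capitals.
Rarb promoter repeat: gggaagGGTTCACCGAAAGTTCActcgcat
Of 32851 mouse promoters of the same length, 0.0974% held a repeat separated by 5 bases, 0.222% a repeat separated by 1 and 0.268% a repeat separated by 2.

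Values are CPM, the reads of a gene scaled to the depth of its library. The libraries held 43804667 to 54913325 reads, so that 1 CPM stood for 44 to 55 reads. Differences are mutant minus control on the log2(CPM + 0.5) scale, with the litter as a block, unless said otherwise. A gene was called at an adjusted p below 0.05 from limma over 13766 rows. By this test 4 of the 9 retinoid genes changed, beside 11.4% of all rows. Aldh1a2, Aldh1a3 and Cyp26b1 rose, beside 7.93% of all rows that rose, and Crabp1 fell, beside 3.51% that fell. The other 5 were not called. The median difference of the 9 genes was 0.20, against 0.01 over all rows, with 8 above 0 and 1 below. When the litter was left out of the model, Cyp26b1 was the only member called, beside 0.559% of all rows, or 0.363% that rose and 0.196% that fell. The 3 mutant libraries did not overlap the 3 control libraries for Aldh1a2, Aldh1a3 and Cyp26b1, and 17.3% of all rows were separated in this way.

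**Figure D1:**
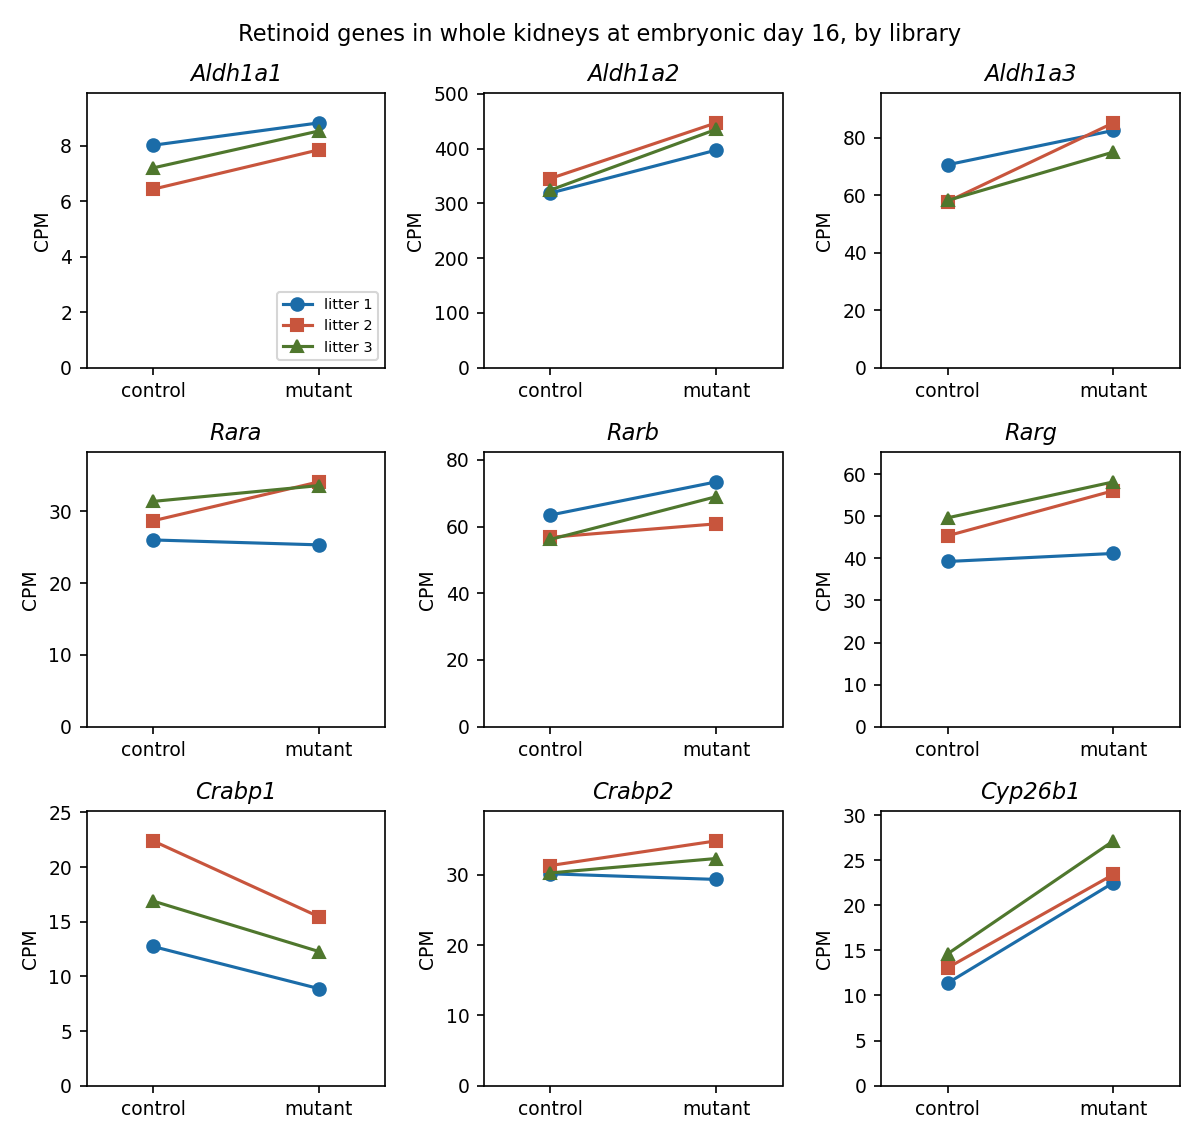
CPM of each retinoid gene in each library, with the control and mutant library of each litter joined by a line. Every line climbs for Aldh1a2, Aldh1a3 and Cyp26b1, and every line descends for Crabp1, although its groups overlap.

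Aldh1a2 (ENSMUSG00000013584), also called Raldh2, is the main retinoic acid synthesising enzyme of the embryo and is known in the kidney from the cortical stroma. It measured 319, 345 and 324 CPM in the control kidneys of litters 1, 2 and 3, and 397, 447 and 435 CPM in the mutant kidneys. The lowest mutant library lay above the highest control library, and each mutant kidney was above its litter mate, by ratios of 1.25, 1.29 and 1.34. The mean went from 330 ± 14.0 to 427 ± 26.0 CPM (SD, n = 3 each), a rise of 0.37 (SE 0.039, 95% interval 0.28 to 0.46), or 1.29-fold, with an adjusted p of 0.00211. Without the block the adjusted p was 0.0667, so this call rests on the comparison within litters. Every member of the set was also compared by an exact two-sided permutation test of the 3 against 3 libraries, which can give no p below 0.1, and Aldh1a2, Aldh1a3 and Cyp26b1 reached this smallest value.

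Aldh1a3 (ENSMUSG00000015134), known as the retinal dehydrogenase of the ureteric bud lineage, differed by about the same amount. Its control values were 70.6, 57.7 and 58.2 CPM, and its mutant values 82.5, 85.1 and 75.0 CPM. All 3 mutant values lay above the control values, and the gap between litter mates was narrowest in litter 1, at a ratio of 1.17, and widest in litter 2, at 1.48. The mean was 62.2 ± 7.29 CPM in controls and 80.9 ± 5.26 CPM in mutants (SD, n = 3 each). The difference was 0.38 (SE 0.067, 95% interval 0.23 to 0.54, adjusted p = 0.0125), or 1.30-fold. The adjusted p was 0.175 on genotype alone.

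Aldh1a1 (ENSMUSG00000053279), a dehydrogenase of the same family, was the least abundant of the 3 in CPM, at 8.01, 6.43 and 7.20 CPM in controls and 8.82, 7.85 and 8.53 CPM in mutants. Each mutant kidney was above its litter mate, but the mutant kidney of litter 2 lay below the control kidney of litter 1. The difference of 0.21 (SE 0.097, 95% interval -0.01 to 0.43) was not called (adjusted p = 0.192). Of the 50-base windows of its transcripts, 6.54% also occur in the neighbouring family member Aldh1a7, so some of its reads may belong to that gene. Aldh1a7 itself had a mean of 12.4 CPM in controls and 9.82 CPM in mutants, a difference of -0.34 that was not called (adjusted p = 0.141).

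Levels of different genes can be set side by side only per length, here as CPM per kilobase of the longest annotated transcript. On this scale Aldh1a2 stood at 145.6 ± 6.20 in controls and 188.4 ± 11.5 in mutants, Aldh1a3 at 18.1 ± 2.12 and 23.5 ± 1.53, and Aldh1a1 at 3.06 ± 0.336 and 3.56 ± 0.211 (SD, n = 3 each). Aldh1a2 therefore made up 87.3% ± 1.64 of the summed level of the 3 dehydrogenases in controls and 87.4% ± 0.989 in mutants. The share of Aldh1a3 was 10.9% in both groups, and that of Aldh1a1 was 1.84% and 1.66%. The difference in the Aldh1a2 share was smaller than the spread among libraries of either group, with an exact permutation p of 1.0. The mean share of each of the 3 dehydrogenases differed by less than 1 percentage point between the groups.

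**Figure D2:**
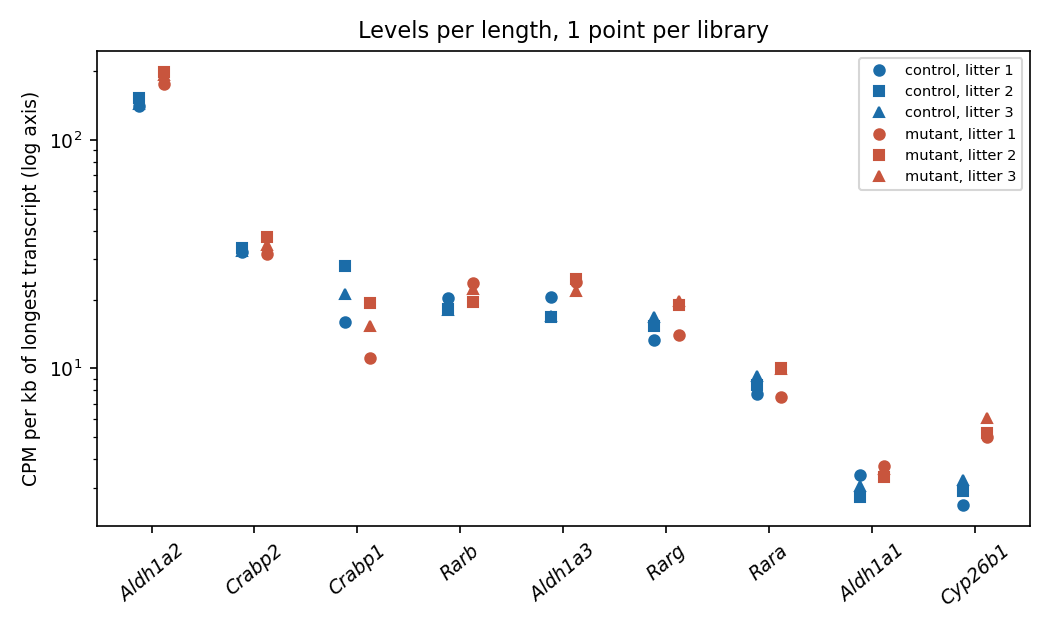
Level of each retinoid gene in each library as CPM per kilobase of its longest transcript, on a log axis. Aldh1a2 lies far above the other genes in every library. Cyp26b1 lies above Aldh1a1 in every mutant library, and also in the control libraries of litters 2 and 3.

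Cyp26b1 (ENSMUSG00000063415), which encodes the cytochrome that hydroxylates retinoic acid for removal, had the widest difference of the 9 genes. Its control values were 11.4, 13.1 and 14.6 CPM, from 498 to 723 reads, and its mutant values 22.5, 23.4 and 27.1 CPM, from 1087 to 1286 reads. The groups were well apart, and the ratio within litters was 1.98, 1.79 and 1.86. The mean of 13.0 ± 1.62 CPM in controls compared with 24.4 ± 2.46 CPM in mutants (SD, n = 3 each), a rise of 0.88 (SE 0.076, 95% interval 0.71 to 1.06), or 1.84-fold. It was called with the block (adjusted p = 0.00132) and without it (adjusted p = 0.0152). This is also the gene that holds the miR-17/20a seed match printed above. Without the block, leaving out the control kidney of litter 2 or the mutant kidney of litter 3 ended the call, with adjusted p of 0.0683 and 0.113.

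The degrading enzyme therefore differed by more than the main synthesising enzyme in these libraries. The ratio of Cyp26b1 to Aldh1a2 CPM was 0.0357, 0.0378 and 0.0451 in the controls and 0.0566, 0.0524 and 0.0624 in the mutants. The groups did not overlap, and the exact permutation p was 0.1, the smallest possible. Cyp26a1, the other well-known degrading enzyme, fell below the filter with 52, 34 and 78 reads in controls and 36, 42 and 39 reads in mutants. Scaled to depth, these were 1.19, 0.773 and 1.58 CPM in controls and 0.745, 0.765 and 0.836 CPM in mutants. The mutant kidney was the lower in all 3 litters, by little in litter 2. Fitted without the filter, its difference was -0.36 (SE 0.18) and was not called (adjusted p = 0.228). Cyp26c1 was not analysed here.

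The 3 receptors, which switch target genes on when retinoic acid binds, were not called. Rara (ENSMUSG00000037992) measured 26.0, 28.7 and 31.4 CPM in controls and 25.3, 34.1 and 33.6 CPM in mutants, with the mutant kidney below its litter mate in litter 1 and above it in the other two. Its difference was 0.10 (95% interval -0.07 to 0.27, adjusted p = 0.396). Rarg (ENSMUSG00000001288) measured 39.3, 45.4 and 49.6 CPM in controls and 41.2, 56.1 and 58.2 CPM in mutants. The mutant kidney was the higher in all 3 litters, but the groups overlapped, and the difference was 0.20 (95% interval 0.05 to 0.34, adjusted p = 0.0784).

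Rarb (ENSMUSG00000017491), whose promoter repeat is printed above, measured 63.4, 56.8 and 56.1 CPM in controls and 73.4, 60.8 and 68.9 CPM in mutants. The mutant kidney was again the higher in all 3 litters, with ratios of 1.16, 1.07 and 1.23, and the mutant library of litter 2 lay below the control library of litter 1. The mean was 58.8 ± 4.05 CPM against 67.7 ± 6.38 CPM (SD, n = 3 each), a difference of 0.20 (SE 0.057, 95% interval 0.07 to 0.33) with an adjusted p of 0.0570. Without litter 2 the difference was 0.25 and the gene was called (adjusted p = 0.0261). In the annotation used here, 1793 of the 3108 bases of its longest transcript lie opposite exons of Top2b, a DNA topoisomerase gene on the other strand. The strand setting of the counting is not given, so reads of the 2 genes there cannot be told apart. Top2b had 513 CPM in controls and 478 CPM in mutants, a difference of -0.10 that was not called (adjusted p = 0.282).

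Per length, Rarb made up 44.5% of the summed receptor level in controls and 45.2% in mutants, Rarg 35.6% and 36.0%, and Rara 19.9% and 18.8%. None of these shares differed beyond the spread of its libraries, with exact permutation p of 1.0, 0.9 and 0.6 (3 shares, unadjusted). The Rarb share carries the uncertainty of its overlap with Top2b.

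Crabp1 and Crabp2 encode the cytoplasmic proteins that carry retinoic acid. CRABP2 is known for delivering it to the receptors. Crabp1 (ENSMUSG00000032291) measured 12.7, 22.4 and 16.9 CPM in controls and 8.88, 15.5 and 12.3 CPM in mutants. The 2 groups overlapped because litters differed, with litter 2 the highest and litter 1 the lowest in both groups. Within litters the mutant kidney was the lower each time, at ratios of 0.697, 0.690 and 0.727. Crabp1 fell by 0.49 (SE 0.079, 95% interval -0.67 to -0.31), to 0.713 of the control level, with an adjusted p of 0.00976. On genotype alone the adjusted p was 0.452, and the exact permutation p of the unpaired libraries was 0.2.

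Crabp2 (ENSMUSG00000004885) measured 30.1, 31.3 and 30.3 CPM in controls and 29.3, 34.8 and 32.3 CPM in mutants. The mutant libraries lay on both sides of the controls, and the difference of 0.07 (95% interval -0.08 to 0.22) was not called (adjusted p = 0.534). The ratio of Crabp1 to Crabp2 CPM was 0.423, 0.716 and 0.559 in the controls of litters 1 to 3 and 0.303, 0.444 and 0.380 in the mutants. It was lower in the mutant kidney of each litter, while the groups as a whole overlapped (exact permutation p = 0.2).

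**Figure D3:**
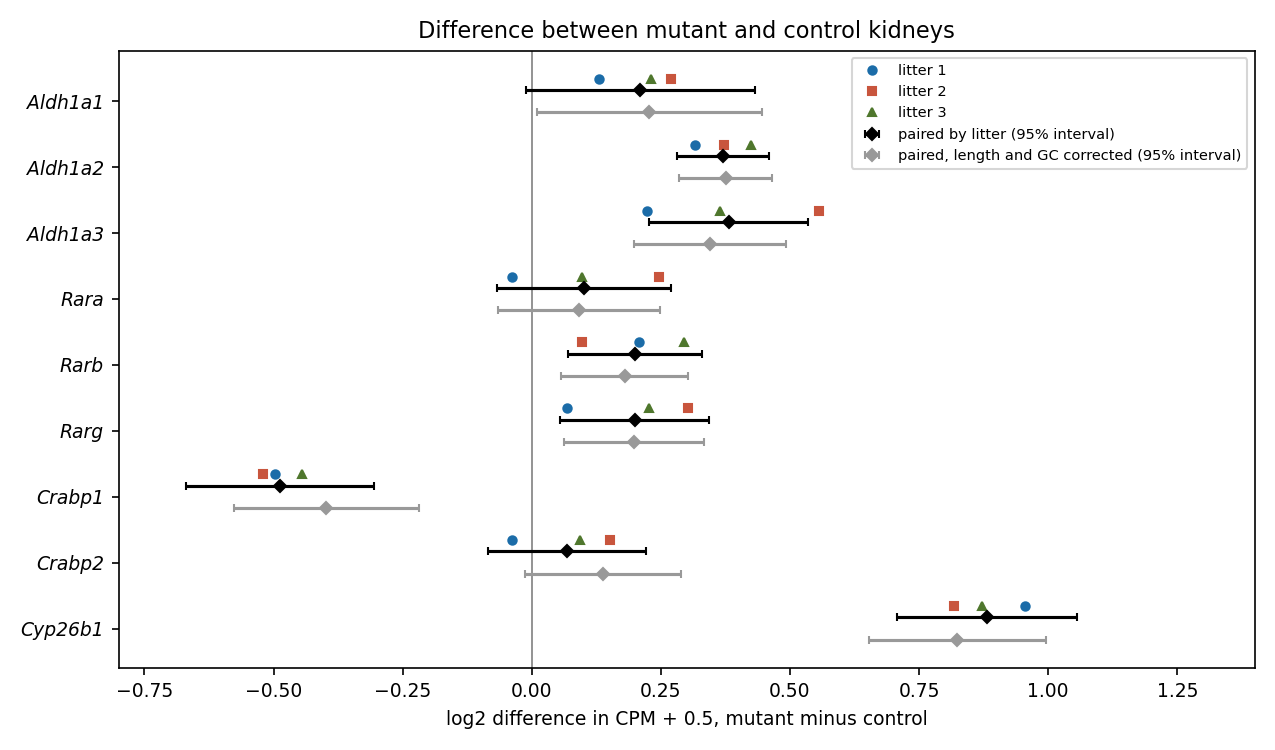
Log2 difference of each retinoid gene, mutant minus control, with a coloured point per litter and the fitted difference with its 95% interval in black, and in grey after a correction for transcript length and GC content. The intervals of Aldh1a2, Aldh1a3 and Cyp26b1 lie above 0 and that of Crabp1 below 0 in both fits. Those of Rarb and Rarg also lie above 0 in both fits, and that of Aldh1a1 in the corrected fit, although none of these was called.

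In controls the order of levels per kilobase, from the top, was Aldh1a2 (145.6), Crabp2 (32.8), Crabp1 (21.6), Rarb (18.9), Aldh1a3 (18.1), Rarg (15.2), Rara (8.48), Aldh1a1 (3.06) and Cyp26b1 (2.90). The ranges of the control libraries overlapped between Crabp1 and Rarb, Rarb and Aldh1a3, Aldh1a3 and Rarg, and Aldh1a1 and Cyp26b1, so these neighbours have no settled order. Dividing by the length of all exons merged, in place of the longest transcript, put Aldh1a3 above Rarb and Cyp26b1 above Aldh1a1. In the mutants Crabp1 stood at 15.2, below Aldh1a3 at 23.5, Rarb at 21.8 and Rarg at 17.6, and Cyp26b1 stood at 5.42, above Aldh1a1 at 3.56.

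Differences across the table moved with transcript length. Over 13517 rows with a length, the rank correlation between the longest transcript and the log2 difference was 0.413, a description across genes, which are not independent replicates. Crabp1, with a longest transcript of 802 bases, is the shortest of the 9 genes, whose median was 2953 bases against 3464 over all rows. After a correction for length and GC content, the same 4 retinoid genes were called, beside 6.59% of all rows, made up of 3.26% that rose and 3.33% that fell. Aldh1a2 then differed by 0.38 (adjusted p = 0.00255), Aldh1a3 by 0.35 (adjusted p = 0.0215), Cyp26b1 by 0.82 (adjusted p = 0.00197) and Crabp1 by -0.40 (adjusted p = 0.0260).

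The wider pathway was read from a list of 48 other genes, of which 34 had rows that passed the filter. In the paired fit 12 of these rose and 1 fell, beside 7.93% of all rows that rose and 3.51% that fell, with a median difference of 0.17 against 0.01 over all rows. After the length and GC correction 3 rose and 1 fell, beside 3.26% and 3.33% of all rows, and the median was 0.04 against -0.02. Without litter 1 the paired fit called 2 of the 34, beside 2.81% of all rows. On genotype alone none was called, beside 0.559% of all rows.

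Of 13 tested rows of genes listed for the conversion of retinol or retinal, 3 rose and none fell, beside the 7.93% and 3.51% of all rows. The rows of Rdh5, Rdh13 and Rdh16 among them join more than 1 gene identifier. Rdh10, the dehydrogenase that makes retinal from retinol in the embryo, measured 51.7, 48.9 and 53.5 CPM in controls and 63.3, 66.5 and 69.1 CPM in mutants. Its groups did not overlap, and it rose by 0.36 (adjusted p = 0.00767, and 0.115 on genotype alone). Dhrs3, which turns retinal back into retinol and is known to be induced by retinoic acid, measured 85.9, 95.9 and 80.7 CPM in controls and 112, 131 and 110.0 CPM in mutants, again without overlap. It rose by 0.42 (adjusted p = 0.00215, and 0.113 on genotype alone). Adh1, an alcohol dehydrogenase, went from 22.5 ± 1.41 to 30.1 ± 3.93 CPM (SD, n = 3 each), a rise of 0.41 (adjusted p = 0.0345, and 0.195 on genotype alone). Its ratio between litter mates was 1.65 in litter 1, 1.19 in litter 2 and 1.21 in litter 3, and without litter 1 the difference was 0.26 and not called (adjusted p = 0.187). All 3 genes were called after the length and GC correction.

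None of 6 tested genes of retinol transport and storage was called, beside 11.4% of all rows. Stra6, the retinol uptake receptor, had 44.3 and 50.3 CPM, a difference of 0.18 (adjusted p = 0.144). Fabp5, a fatty acid carrier that also binds retinoic acid, had 176 ± 7.35 CPM in controls and 152 ± 7.36 CPM in mutants (SD, n = 3 each) and fell by 0.22 (adjusted p = 0.0164, 0.320 on genotype alone and 0.114 without litter 1).

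Of 14 tested partners and co-regulators of the receptors, 9 rose in the paired fit, beside 7.93% of all rows. They included Rxra, one of the RXR partners with which the receptors form heterodimers, the co-activators Ncoa1, Ncoa2, Ncoa3 and Crebbp, the co-repressor Ncor1, the co-regulator Nrip1, and a row that joins Ep300 with another gene. Their differences ran from 0.17 for Ncor1 to 0.36 for Crebbp, and Rxra rose by 0.20 (adjusted p = 0.0417). Rxrb differed by -0.03 (adjusted p = 0.780) and Rxrg by 0.22 (adjusted p = 0.458). The longest transcripts of this group have a median of 7430 bases. After the length and GC correction none of the 14 was called, beside 6.59% of all rows, their median went from 0.21 to 0.10, and Ncor1 stood at -0.02.

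**Figure D4:**
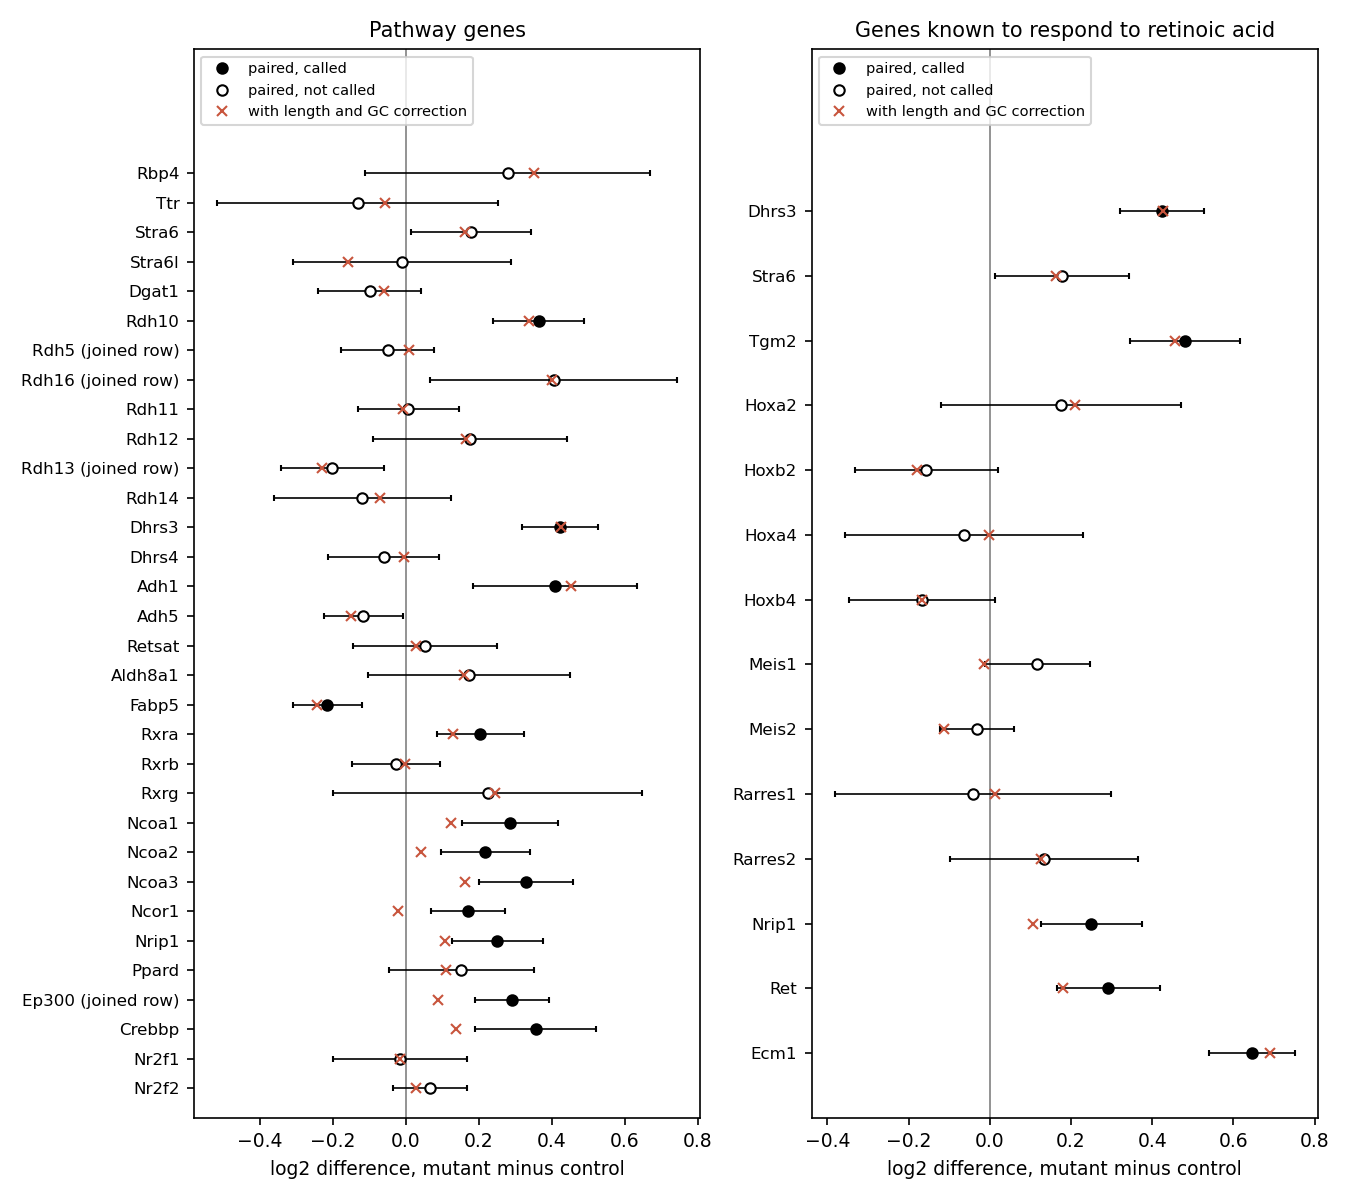
Log2 differences, mutant minus control, of tested pathway genes (left) and of genes known to respond to retinoic acid (right), with 95% intervals from the paired fit and crosses for the fit corrected for length and GC content. The crosses of the co-regulators lie nearer to 0 than their points, while those of Rdh10, Dhrs3, Adh1, Ecm1 and Tgm2 stay beside theirs.

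Of 22 genes listed as known to respond to retinoic acid, 16 were tested, 6 rose and none fell, beside 7.93% of all rows that rose and 3.51% that fell, with a median of 0.15 against 0.01 over all rows. On genotype alone none of the 16 was called, beside 0.559% of all rows. Ecm1, a secreted matrix protein of the stroma through which retinoic acid signalling is known to act on the ureteric bud, measured 80.5, 124 and 103 CPM in controls and 133, 187 and 159.9 CPM in mutants. The 3 mutant values lay above the 3 control values, the closest pair being 124 and 133 CPM, and litter 2 was the highest in both groups. It rose by 0.65 (adjusted p = 0.000539), and its adjusted p was 0.126 on genotype alone. Tgm2, a transglutaminase induced by retinoic acid in many cells, went from 45.3 ± 2.44 to 63.6 ± 7.38 CPM (SD, n = 3 each), a rise of 0.48 (adjusted p = 0.00347).

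Ret, the receptor of the ureteric bud tips, measured 52.4, 59.7 and 50.5 CPM in controls and 62.6, 70.1 and 66.5 CPM in mutants. The groups did not overlap, and Ret rose by 0.29 (adjusted p = 0.0164, 0.279 on genotype alone and 0.0769 without litter 1). Dhrs3 and Nrip1, described above, are on this list as well. After the length and GC correction Ecm1, Tgm2 and Dhrs3 were called, and Ret, with a difference of 0.18 (adjusted p = 0.0912), and Nrip1 were not. Classic homeobox targets were not called in any direction, among them Hoxb4 at -0.17 (adjusted p = 0.203), Hoxa2 at 0.18 (adjusted p = 0.402), Meis1 at 0.12 (adjusted p = 0.208) and Meis2 at -0.03 (adjusted p = 0.649).

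Markers of the cell types that a whole kidney holds also differed between the groups. The counts that follow are from the paired fit unless said otherwise, in which 7.93% of all rows rose and 3.51% fell. After the length and GC correction 3.26% of all rows rose and 3.33% fell, and on genotype alone 0.363% and 0.196%. The summed level of 10 stromal markers was 2945 to 3245 CPM in controls and 3472 to 4127 CPM in mutants. Its largest parts were Col3a1 and Col1a1, with control means of 1637 and 741 CPM. Neither of these was called (adjusted p = 0.0928 and 0.0518). Fat4, Foxd1, Ntn1 and Pdgfra rose, and all 10 differences were above 0. After the length and GC correction 3 of the 10 were called, without Foxd1 (0.22, adjusted p = 0.110), and 9 of 10 differences were above 0. Nephron progenitor markers summed to 412 to 423 CPM in controls and 322 to 334 CPM in mutants, and 5 of 8 fell. Ureteric bud and collecting duct markers summed to 687 to 700.2 CPM and 752 to 800.4 CPM, and 4 of 9 rose. Proximal tubule markers summed to 674 to 764 CPM and 844 to 1024 CPM, and 5 of 7 rose, against 2 of 7 after the correction. Podocyte markers summed to 625 to 739 CPM and 595 to 672 CPM, and 2 of 7 fell. On genotype alone 3 stromal markers rose, 3 progenitor markers fell, and none of the ureteric, proximal tubule or podocyte markers was called. The part of these cell types in the retinoid differences was not tested.

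Markers of tissues that lie beside the kidney were low. Of 8 gonad markers 6, and of 9 adrenal markers 7, had no row of their own, and the remaining ones summed to 1.77 to 2.15 CPM and 4.49 to 5.64 CPM in controls, and to 1.65 to 2.19 CPM and 4.47 to 4.99 CPM in mutants. Mesothelial markers summed to 29.6 to 34.8 CPM in controls and 32.2 to 46.6 CPM in mutants, with none of 3 tested called. Markers of loop and distal tubule summed to 246 to 310 CPM and 238 to 366 CPM, with none of 4 called. Of 8 neural and Schwann markers 3 had rows, which summed to 18.9 to 25.6 CPM and 17.4 to 23.7 CPM. Among them the neuronal gene Elavl4 fell from 8.17 ± 1.59 to 3.07 ± 1.06 CPM (SD, n = 3 each, difference -1.30, adjusted p = 0.00365). The other 2 were not called, and their differences were above 0. The part of Elavl4-expressing cells in the lower Crabp1 was not tested.

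**Figure D5:**
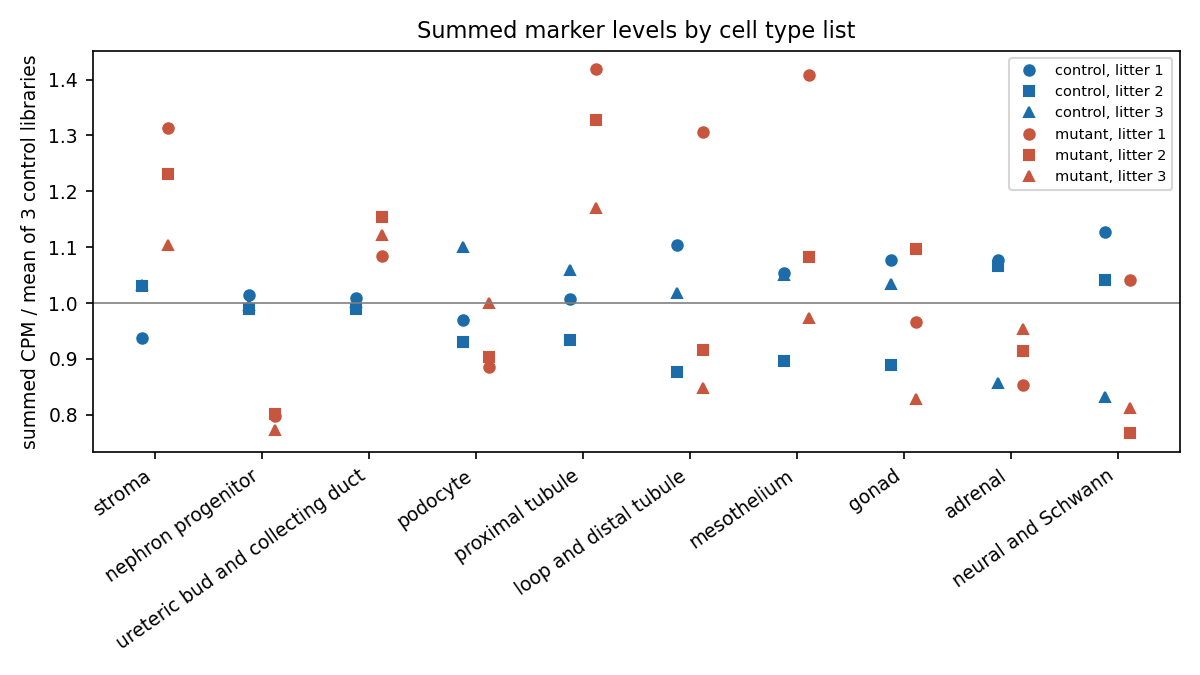
Summed CPM of each list of cell type markers in each library, divided by the mean of the 3 control libraries, with control and mutant libraries side by side. Stromal, ureteric and proximal tubule sums are higher and nephron progenitor sums lower in all 3 mutant libraries than in any control library.

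The rows whose profile over the 6 libraries was most like that of a called member were named by Pearson's r on the log2 scale among 12683 single protein-coding rows, as a description without a test. All rows share the same 6 libraries, groups and litters. For Aldh1a2 they were Ap2b1 (r = 0.997), Ptx3 (r = 0.996) and Ntsr1 (r = 0.994), of which Ntsr1 went from 10.7 ± 0.759 to 19.9 ± 1.95 CPM (SD, n = 3 each). For Aldh1a3 they were Ppp1r3b (r = 0.990), Prepl (r = 0.990) and Cgas (r = 0.988). For Cyp26b1 they were Acaca (r = 0.997), Olfr78 (r = 0.996) and Mamld1 (r = 0.994). For Crabp1 they were Mdk (r = 0.996), Rpl38 (r = 0.992) and Rrp9 (r = 0.991).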

How the data were processed

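RNA was extracted with Trizol and made into Illumina TruSeq RNA libraries, per the labels' protocols. Reads were aligned with TopHat2 2.0.9, and Picard, SAMtools and build NCBIM37 are also named, per the submitters' processing notes; the counting program, annotation and strand setting are not given in the sources used here. The authors deposited CPM values, in which 526 of 13965 rows join more than 1 gene identifier. Not all overlapping genes are joined, since Rarb and Top2b have separate rows. Symbols, transcript lengths and 3′ UTRs came from GENCODE M21 on GRCm38, and no coordinate was moved between builds. limma 3.58.1 in R 4.3.3 was fitted with the mean-variance trend on log2(CPM + 0.5) for rows that reached 1 CPM in 3 or more libraries, on genotype and litter, with Benjamini-Hochberg adjustment over 13766 rows. Litters pair the libraries by label, and deviations from the group means correlated at 0.619, 0.446 and 0.312 within litters, and at -0.514 to 0.172 between them. Replicates within a group come from different litters, but the labels do not say whether a library pools embryos. The paired p-values therefore measure how much the difference between the libraries of a litter varied between litters. Those on genotype alone measure the spread between libraries within a group. The length and GC correction, an alternative, fitted splines of length and GC content in each library. The fit was tested on simulated data.

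All 9 members were named, as were called pathway and response genes, up to 10 a list by size, and for each called member the 3 rows most like it by r. The members and lists were chosen with earlier results of these data known. Genes for which no row matched were not analysed here. A few listed genes are counted but their own values are not reported here.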

Additional observations from a re-analysis of the deposited data

How the results depend on the processing

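Called rows in all numbered 77 without the litter block, 891 with the length and GC correction and block, and 196 with that correction and no block (a setting chosen after seeing the data), against 1574 in the paired fit. Leaving out 1 litter gave 381 to 2348 (381 without litter 1), and leaving out 1 library with no block gave 100, 27 and 44 (controls 1 to 3) and 73, 34 and 22 (mutants 1 to 3). For the 9 retinoid genes the counts were 1 without the block, 2 with the correction and no block, 4 to 5 without 1 litter, and 0 to 2 without 1 library. Pathway genes called went from 13 to 0 without the block, 4 with the correction and block and 1 with the correction and no block, with 2 to 14 without 1 litter (2 without litter 1) and 0 without any 1 library. Response genes called went from 6 to 0 without the block and 3 with the correction, with or without the block, with 3 to 7 without 1 litter and 0 to 1 without 1 library. Aldh1a2, Aldh1a3, Crabp1 and Cyp26b1 were called in each of 3 fits without 1 litter; with no block and 1 library left out they were called in 1, 0, 0 and 4 of 6 fits. All 9 kept their direction under every alternative run. Ncor1 turned to -0.02 with the correction, with and without the block (0.11 to 0.22 without 1 litter or library). Rxrb ran from -0.05 to 0.01 without 1 litter (0.01 without litter 3) and from -0.11 to 0.04 without 1 library and no block (0.04 without control 2, 0.02 without mutant 1 and 0.01 without mutant 3). Trimmed-mean scaling gave 898 higher and 597 lower rows and median-ratio scaling 909 and 594, against 1091 and 483 without scaling. Other pseudocounts and filters on low values changed no call of the 9 genes. Count tests on reads were not run. The cause of these changes was not tested. Aldh1a1 rests on 283 to 431 reads a library. For the 5 uncalled members the 95% intervals reach up to 0.43 (Aldh1a1), 0.27 (Rara), 0.33 (Rarb), 0.34 (Rarg) and 0.22 (Crabp2), so differences of these sizes remain possible.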
